A study of Mus musculus with 6 samples.

Results

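The Hippo pathway and its transcriptional output were followed through 10 genes in R1 mouse embryonic stem cells in which Pcl2, a Polycomb-like protein encoded by Mtf2, had been lowered by a short hairpin RNA (shRNA). The set holds the YAP-TEAD targets Ccn1, Ccn2 and Ankrd1, the angiomotin family Amot, Amotl1 and Amotl2, the LIM protein gene Ajuba, the kinase gene Lats2, and Yap1 and Wwtr1, which encode the coactivators YAP and TAZ. These are 10 of the 18193 genes that the array annotation names, and they are measured by 26 probe sets, all those whose annotation names 1 of the genes and no other. The genes were chosen by their function and by their log2 differences between the shRNA and control arrays, so those differences are given as a description, without p-values, and support nothing.

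The Hippo pathway is a kinase cascade in which the kinases Stk3 and Stk4 activate the kinases Lats1 and Lats2, and these phosphorylate YAP and TAZ and hold them in the cytoplasm. Unphosphorylated YAP and TAZ enter the nucleus and work through DNA-binding TEAD factors, which drive genes such as Ccn1, Ccn2 and Ankrd1. Angiomotins bind YAP and TAZ at cell junctions and in the cytoplasm, Ajuba restrains Lats kinases, and Lats2 and Amotl2 are themselves known TEAD targets, which makes them feedback regulators. In the early mouse embryo this pathway separates trophectoderm, where YAP is nuclear, from the inner cell mass, from which embryonic stem cells are derived.

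Total RNA of undifferentiated R1 cells grown with leukaemia inhibitory factor was hybridised to 6 Affymetrix mouse genome arrays, 3 biological replicates per group. The Pcl2 shRNA group is R1 cells stably transfected with the Pcl2 hairpin, all from 1 clone, and the control group is R1 cells stably transfected with a mismatch hairpin sequence. Both groups therefore carry a stably integrated hairpin. The hairpin and the clone cannot be told apart, and p-values measure only the spread between these samples. Values are MAS5 signals, a linear brightness per probe set, given in the order replicate 1, 2 and 3. Differences are log2 fold changes of signal plus 7, shRNA over control, each with its standard error (SE), and the small number of arrays limits their precision. A change was called where limma's adjusted p, over 13095 tested genes, was below 0.05.

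The targeted gene checks the labels: Mtf2 signals were 1952, 1513 and 1704 in the controls and 1048, 1167 and 869.6 with the shRNA (log2 -0.74, SE 0.17, limma adjusted p = 0.0157), a call that was lost without control replicate 1 (adjusted p = 0.0519) or shRNA replicate 3 (adjusted p = 0.0574). Other bright Mtf2 probe sets gave -0.683, -0.747 and -0.725 without overlap. The dimmest gave 0.246 and -0.152 with overlapping groups, and the mean of the tested probe sets was -0.53. All 8 embryonic stem cell markers examined were above background on every array. Background was set at a signal of 20.3, the brightest reading among probe sets for bacterial transcripts that were not spiked in. Across all tested genes 8.16% were called lower and 4.46% higher, and 16.7% had every shRNA array below every control array. With the replicate number as a block these calls were 13.8% and 9.97%.

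The promoters are shown first, because TEAD factors bind a short element whose letters can be looked for directly. The motif searched was GGAATG on either strand, which reads CATTCC on the opposite strand, the core of the M-CAT element bound by TEAD factors. RefSeq promoters of GRCm38.p6, from 250 bases before to 50 after each start, were matched by symbol for 9 of the 10 genes, and Ccn2 had no entry in the table used. The motif was found for 7 of these 9 genes. Among tested genes with an entry 14.5% held it (1535 of 10576), and of all genes with a RefSeq entry 16.6% did. Several of the 10 genes are known as TEAD targets, so the comparison describes these promoters and is no test. Sequences run 5′ to 3′ along the gene's strand, and capitals mark the motif. Ccn1, Ankrd1 and Amotl2 are given in full from -250 to -1 as the genes of largest difference or, for Ankrd1, with a pair of motifs, and the others as the stretch around the motif:
Ccn1, chr3:145649986-145650235, minus strand: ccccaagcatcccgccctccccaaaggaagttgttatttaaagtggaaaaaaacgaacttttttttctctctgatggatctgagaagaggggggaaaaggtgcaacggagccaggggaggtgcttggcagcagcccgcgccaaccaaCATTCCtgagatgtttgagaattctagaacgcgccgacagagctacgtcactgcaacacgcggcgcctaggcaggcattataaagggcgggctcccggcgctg
Ankrd1, chr19:36119845-36120094, minus strand: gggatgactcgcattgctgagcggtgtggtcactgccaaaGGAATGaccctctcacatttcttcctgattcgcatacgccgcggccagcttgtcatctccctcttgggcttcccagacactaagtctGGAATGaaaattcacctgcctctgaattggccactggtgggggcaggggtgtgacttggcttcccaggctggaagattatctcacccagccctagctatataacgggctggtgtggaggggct
Amotl2, chr9:102717554-102717803, plus strand: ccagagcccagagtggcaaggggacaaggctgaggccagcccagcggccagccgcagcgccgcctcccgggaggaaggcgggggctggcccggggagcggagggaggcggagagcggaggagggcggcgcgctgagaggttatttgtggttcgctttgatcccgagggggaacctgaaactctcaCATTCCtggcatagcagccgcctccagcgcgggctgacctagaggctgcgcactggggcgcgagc
Ajuba, chr14:54577780-54577887, minus strand: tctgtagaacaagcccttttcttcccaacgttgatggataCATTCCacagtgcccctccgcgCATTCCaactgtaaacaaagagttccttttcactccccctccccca
Yap1, chr9:8004692-8004777, minus strand: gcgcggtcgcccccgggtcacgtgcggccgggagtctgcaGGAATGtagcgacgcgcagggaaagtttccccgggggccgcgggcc
Wwtr1, chr3:57576001-57576086, minus strand: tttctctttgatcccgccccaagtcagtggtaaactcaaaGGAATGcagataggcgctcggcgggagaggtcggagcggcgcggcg
Lats2, chr14:57746104-57746129, minus strand: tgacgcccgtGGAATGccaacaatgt

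Ankrd1 and Ajuba each held the motif at a pair of positions, with the first base at -210 and -123 for Ankrd1 and at -186 and -164 for Ajuba. In Ccn1 it began at -103, in Amotl2 at -65 and in Yap1 at -141. Wwtr1 has 2 annotated starts, and the same copy lay at -136 or -170 from them. In Lats2 it lay just after the start, at 5, and the other annotated Lats2 start had none. Neither the Amot nor the Amotl1 window held the letters, which says only that they are not in these 300 bases. The AP-1 motif TGANTCA was in none of the 9 promoters (6.44% of tested genes) and neither was a CArG box, the element bound by Srf (1.53% of tested genes). At shares this low, none among 9 genes is near the share of all tested genes. Nothing outside these 300 bases was searched.

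All 10 genes passed the signal filter by their brightest probe set. Of the 10, 7 were called lower and none higher, beside 8.16% and 4.46% of all genes. For 9 of the 10 every shRNA array was below every control array, beside 16.7% of all genes, and Ankrd1 was the exception. The median of the 10 log2 differences was -1.45 and the median of all tested genes 0.02. Because this same contrast chose the genes, nothing is read from these counts. In these bulk samples fewer cells of a type and less RNA per cell cannot be told apart.

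**Figure D1:**
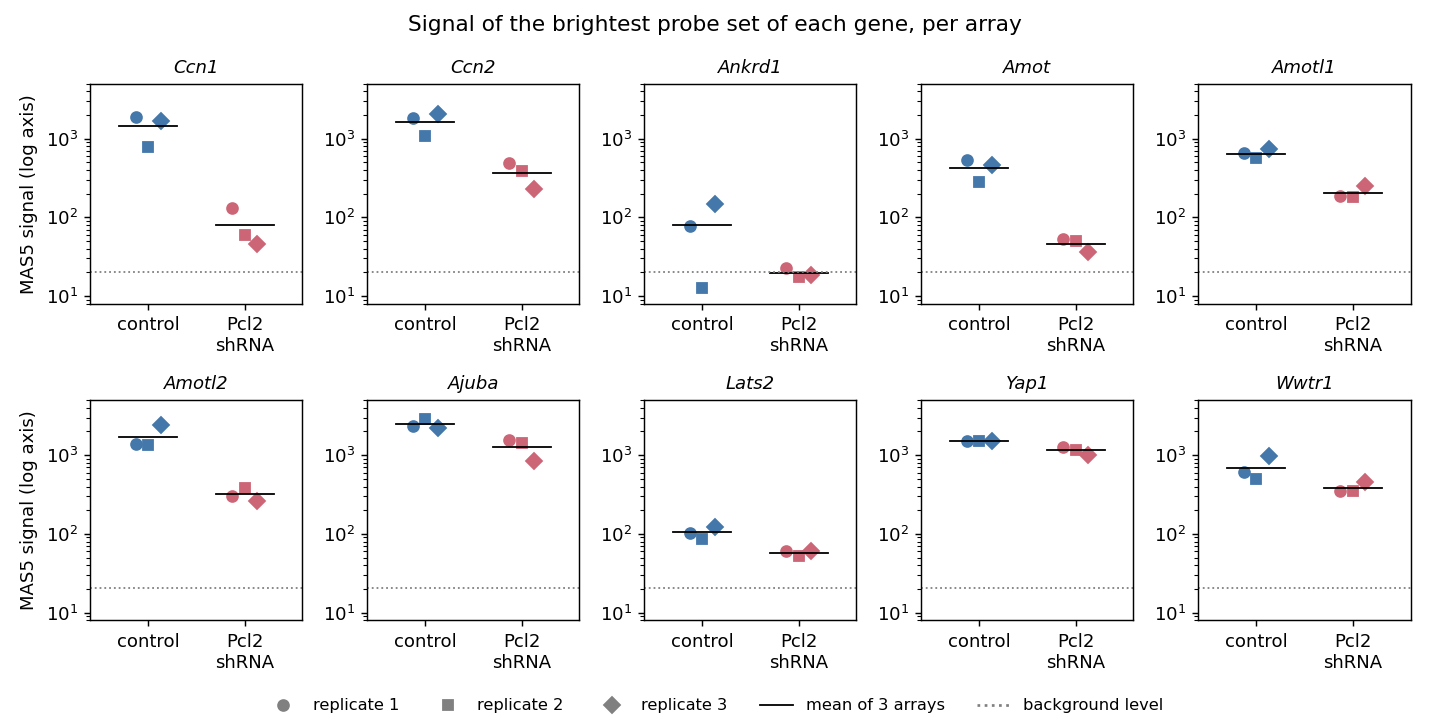
MAS5 signal (log axis) of the brightest probe set of each of the 10 genes on the 3 control (blue) and 3 Pcl2 shRNA (red) arrays, with the group mean as a line and the background level of 20.3 dotted. Groups are separate in every panel but Ankrd1, where control replicate 2 lies at 12.6, and Ccn1 and Amot show the widest gaps.

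Ccn1 encodes a matricellular protein secreted into the extracellular matrix and is a standard readout of YAP and TEAD. Its signals were 1892, 789 and 1698 in the controls and 131, 59.2 and 46.4 with the shRNA. The shRNA arrays held 5.40% of the mean control signal (1459.6 ± 589 against 78.8 ± 45.4, SD, n = 3 each), and the log2 difference was -4.12 (SE 0.39). Control replicate 2 was the lowest control and yet far above the highest shRNA array. This probe set is of a type that can cross-hybridise, but a probe set without that mark gave 1379, 722 and 1551 against 75.5, 77.9 and 27.8, a log2 difference of -4.22.

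The other Ccn1 probe sets were dimmer. One read 36.0, 53.9 and 281 in the controls and lay at or below background on all 3 shRNA arrays (4.3, 15.7 and 4.1), so it was at least 4.03-fold lower. The other gave a log2 difference of -2.46. Both put control replicate 3 far above the other controls, which the brighter pair did not.

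Ccn2, a paralogue of Ccn1 and also a secreted matricellular protein, has a single probe set. It read 1813, 1069 and 2039 in the controls against 493, 388 and 227 with the shRNA, so that 22.5% of the mean signal was left (log2 -2.15, SE 0.30). As for Ccn1, control replicate 2 was the lowest control, and shRNA replicate 1 was the highest and replicate 3 the lowest of their group.

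Ankrd1, an ankyrin-repeat protein of heart and muscle that responds to YAP in many cell types, was close to background. Its brightest probe set gave 78.0, 12.6 and 147 in the controls and 22.6, 17.2 and 18.5 with the shRNA. The groups overlapped, since control replicate 2 was below all shRNA arrays, and the log2 difference of -1.27 (SE 0.60) was not called. Without control replicate 2 it was -2.12 and called, and without control replicate 3 it was -0.64 and not called. The dimmer probe set was below background on every shRNA array (1.9, 4.2 and 0.8) and above it on 2 of 3 control arrays (57.0, 14.6 and 114), which puts it at least 2.25-fold lower.

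The 3 angiomotins, scaffold proteins that bind YAP, TAZ, actin and tight junction proteins, were all called lower. Amot, which is X-linked, read 534, 279.7 and 467 in the controls and 52.5, 49.4 and 36.7 with the shRNA by its brightest probe set, 10.8% of the control mean (log2 -2.99, SE 0.26). A dimmer Amot probe set gave 162, 60.8 and 102 against 40.8, 39.8 and 23.3 (log2 -1.40). The remaining one gave 127, 71.8 and 89.5 against 91.4, 94.2 and 114, with overlapping groups and a log2 difference of 0.08. Its name marks it as matching several transcripts, and the files do not say which transcripts each probe set reads. With the mean of the 3 probe sets the Amot value was -1.44.

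Amotl1 has a pair of bright probe sets that both separated the groups. The brighter read 649, 559.7 and 730.3 in the controls and 185, 183 and 250.6 with the shRNA (log2 -1.62, SE 0.19). The other read 465, 338.5 and 616 against 54.8, 51.7 and 68.7, a log2 difference of -2.84, so the size of the difference depends on which is used. The last probe set, at or near background, overlapped between groups (log2 -0.53).

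Amotl2, also a TEAD target, read 1372, 1336 and 2433 against 306, 380.5 and 264 on its single probe set. The shRNA arrays held 18.5% of the control mean (log2 -2.37, SE 0.24). Control replicate 3 stood above the others, and the highest shRNA array was far below the lowest control.

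Ajuba, a LIM-domain protein that binds Lats kinases and limits their activity at junctions, was lower by a smaller amount. It read 2367, 2872.5 and 2186 in the controls and 1567, 1411 and 844 with the shRNA, 51.5% of the control mean (log2 -0.99, SE 0.23). Here control replicate 2 was the highest control, unlike in Ccn1, Ccn2 and Amot. Without control replicate 2 the difference was -0.88 and no longer called.

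Lats2, the kinase that phosphorylates YAP and TAZ, has 6 probe sets and the least settled value of the genes called lower. Its brightest gave 102, 87.1 and 124 in the controls and 60.8, 52.8 and 60 with the shRNA (log2 -0.77, SE 0.21). The groups did not overlap, but the call was lost on leaving out any array other than control replicate 2, with values from -0.65 (without control replicate 3) to -0.80 (without shRNA replicate 1). It was also lost when no filter on signal was applied (-0.77). A pair of other probe sets gave larger differences, with 113, 41.1 and 250.4 against 37.1, 12.6 and 14.6 (log2 -2.10) and 87.4, 31.1 and 156.5 against 22, 14.9 and 16.4 (log2 -1.77). In both, control replicate 2 was only a little above the highest shRNA array. Another overlapped between groups (log2 -0.37), and the last pair was at or below background on all 6 arrays. With the mean of the tested probe sets the Lats2 value was -1.25.

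Yap1, the coactivator restrained by the cascade, moved least. It read 1493.5, 1522 and 1507 in the controls and 1266, 1178 and 999 with the shRNA, leaving 76.1% of the mean (log2 -0.40, SE 0.15), and was not called. Its controls spanned only 1493.5 to 1522, and the groups did not overlap on either probe set. The dimmer one gave 345, 314 and 254 against 226, 239 and 209 (log2 -0.42). With the replicate number as a block Yap1 was called lower at the same value.

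Wwtr1, which encodes TAZ, gave 606, 501 and 981 in the controls and 351, 354 and 459 with the shRNA (log2 -0.78, SE 0.24), and was not called. Its other probe sets gave close values of -0.73 and -0.83, and the groups of the first of these overlapped by a hair, at 213 in control replicate 2 and 215 in shRNA replicate 3. Wwtr1 was called with the replicate number as a block (-0.78), with median centring (-0.84), with array weights (-0.82) and without control replicate 2 (-0.99). Without control replicate 3 it was -0.51 and not called.

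**Figure D2:**
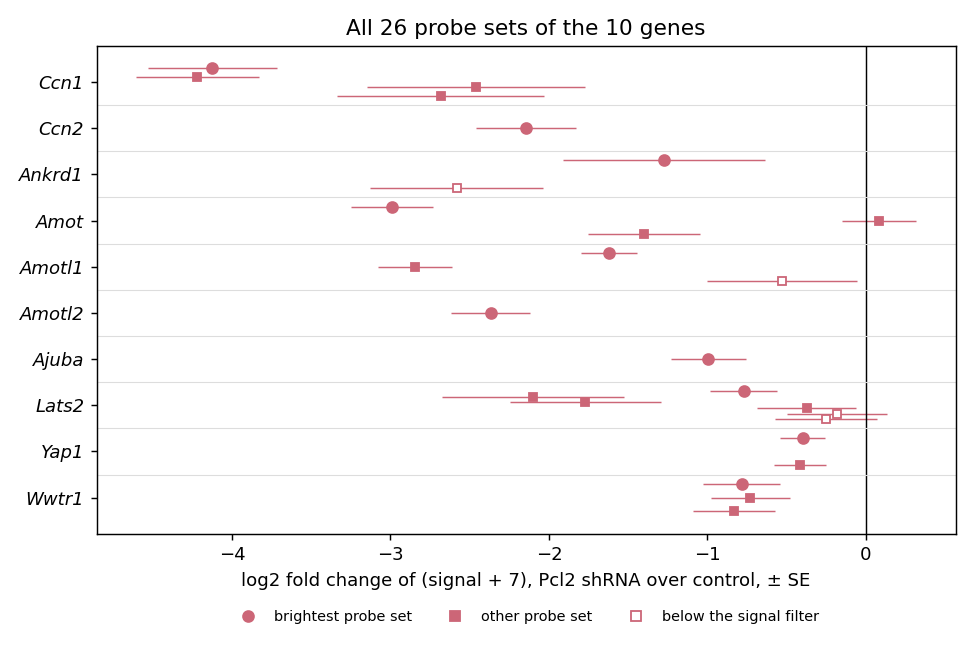
Log2 fold change of signal plus 7 (shRNA over control, ± SE from a fit of all probe sets) for all 26 probe sets, by gene; circles are the brightest probe set, squares the others, open symbols those under the signal filter. Of the 26, 25 lie below 0 and the exception is an Amot probe set at 0.08; Ccn1, Amot, Amotl1 and Lats2 show the widest spread between probe sets.

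By probe set, 25 of 26 had a log2 difference below 0, and 19 had every shRNA array below every control array, beside 11.8% of all probe sets naming 1 gene. Of the 26, 22 passed the signal filter. Counting calls, the number of genes lower among the 10 was 9 with the replicate block (13.8% of all genes in that fit), 8 without control replicate 2 and 6 without any other single array. The 3 largest differences, those of Ccn1, Amot and Amotl2, kept their call under all alternatives run, as did Ccn2 and Amotl1. These refits used the same arrays that chose the genes, so a kept call supports nothing.

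Within the control group the genes also varied together in part. Control replicate 2 was the lowest control for 8 of the 10 (all but Ajuba and Yap1), beside 38.8% of all tested genes. Its log2 deviation from the control mean was -1.69 for Ankrd1, -0.78 for Ccn1, -0.56 for Ccn2 and -0.55 for Amot, and 0.01 for Yap1. Control replicate 3 was the highest control for 6 of the 10, beside 38.1% of all genes. Among the shRNA arrays, replicate 1 was the highest for Ccn1 (0.81) and Ccn2 (0.48), and replicate 3 the lowest (-0.56 and -0.62). The median signal of all probe sets was 28.5 on control replicate 2 and 33.2 to 33.9 on the other arrays, and the part of that difference in these values was not tested.

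**Figure D3:**
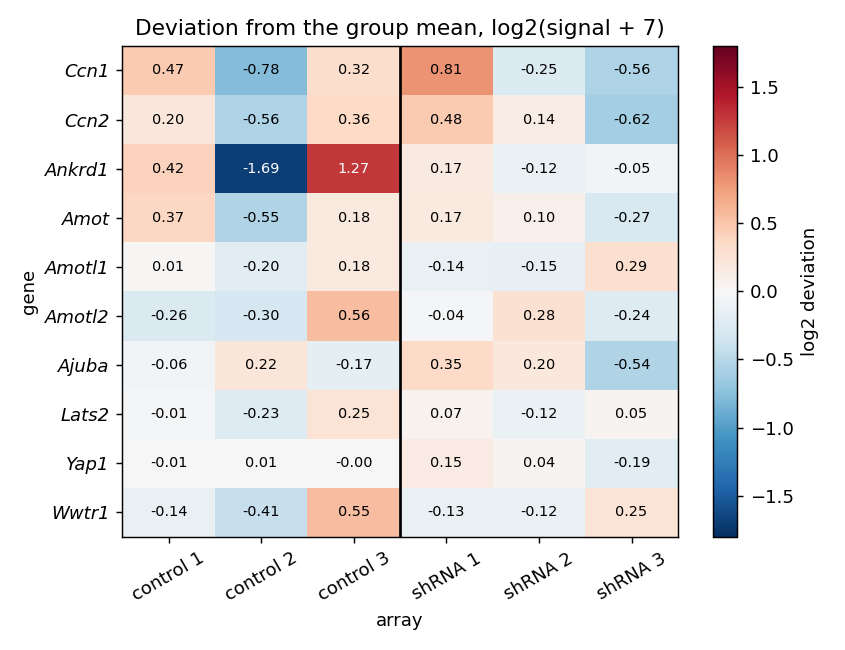
Deviation of each array from its own group's mean, in log2(signal + 7), for the 10 genes (rows) on the 6 arrays (columns), with red above and blue below the group mean. Control replicate 2 is below the control mean in 8 rows, down to -1.69 for Ankrd1, while the Yap1 controls deviate least, by -0.01, 0.01 and 0.00 at the printed precision.

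The genes whose log2 values followed Ccn1 most closely over the 6 arrays were Vcl (Pearson r = 0.9994), which encodes the focal adhesion protein vinculin, the ephrin ligand gene Efnb2 (0.9992), the membrane protein gene Emp3 (0.9989), the galectin gene Lgals1 (0.9988) and Fgfbp1 (0.9978), which encodes a carrier of fibroblast growth factors. The arrays form 2 separate groups, so these values describe mainly the shared step between the groups and carry no test. Their own differences were -1.58 for Vcl, -2.09 for Efnb2, -1.27 for Emp3, -2.06 for Lgals1 and -2.75 for Fgfbp1. Among the other genes of the set Amot ranked highest in likeness to Ccn1, at rank 40 of all tested genes, followed by Ccn2 at rank 80.

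Of the TEAD factors, the DNA-binding partners of YAP and TAZ, only Tead3 passed in the fit as reported. Tead3 fell, from 196, 172 and 196 to 36.0, 63.6 and 60.4 (log2 -1.72, SE 0.23, limma adjusted p = 0.00114). Tead1 (814, 1077.5 and 1633 against 679.9, 722 and 793.5; log2 -0.62, limma adjusted p = 0.11) and Tead2 (447, 729 and 685.5 against 276, 399 and 435; log2 -0.73, limma adjusted p = 0.0687) did not pass, though their groups did not overlap. Both passed with the replicate block (limma adjusted p = 0.0173 and 0.00239) and without control replicate 1 (limma adjusted p = 0.0333 at -0.86 for Tead1 and 0.0289 at -0.95 for Tead2), and Tead1 gave -0.36 without control replicate 3. Tead4, known for its role in trophectoderm, was near background at 44.8, 19.9 and 29.4 against 27.1, 27.8 and 26.4 and did not pass (log2 -0.12, limma adjusted p = 0.839), with 0.12 without control replicate 1. Whether the TEAD genes differ from each other in response was not tested.

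Among Hippo pathway genes beyond the 10, the TEAD genes included, most did not pass the test. Of 51 genes listed, 45 could be tested, and 8 fell, Tead3 among them, 1 rose and 36 did not pass, with a median of -0.17 (all genes 0.02). Of all tested genes 8.16% were called lower and 4.46% higher. With the replicate block 14 fell and 1 rose, beside 13.8% and 9.97% of all genes in that fit. The list was written with earlier results of these data known, so these counts are a description and support nothing.

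Vgll3, a vestigial-like cofactor that binds TEAD factors, changed most, from 416, 144 and 407 to 38.8, 28.2 and 23.4 (log2 -3.03, SE 0.37, limma adjusted p = 0.000757). Control replicate 2 was the lowest control here too. Patj, a scaffold of the Crumbs polarity complex, went from 195, 181 and 232 to 39.2, 26.4 and 52.1 (log2 -2.21, limma adjusted p = 0.00042). Map4k5, of a kinase family that can activate Lats, fell (log2 -1.31, limma adjusted p = 0.00157), and so did the atypical cadherin gene Fat1 (log2 -1.06, adjusted p = 0.00275) and Mob1a, the adaptor that activates Lats kinases (log2 -1.02, adjusted p = 0.0057). Frmd6, which encodes a FERM-domain protein upstream of the cascade, fell by 1.00 (limma adjusted p = 0.0116, and 0.0503 without shRNA replicate 2).

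Wwc2, a relative of the scaffold Kibra, fell by 0.69 on the log2 scale (limma adjusted p = 0.0262), a call lost without any 1 array but control replicate 2 (adjusted p up to 0.101). Stk38, a kinase related to Lats, was the 1 that rose, from 658, 782 and 651 to 977, 1282 and 1188 (log2 0.71, SE 0.16, limma adjusted p = 0.017). It lost its call without control replicate 1 (0.0571), shRNA replicate 2 (0.097) or shRNA replicate 3 (0.055), with median centring (0.0548) and with the mean of its probe sets (log2 0.36, adjusted p = 0.283). The 2 brightest that did not pass were the tight junction gene Tjp1 (log2 -0.68, limma adjusted p = 0.0649, and 0.0225 with the block) and Strn3 (log2 -0.12, adjusted p = 0.704), which belongs to a phosphatase complex that opposes Stk3 and Stk4. Tjp1 passed without control replicate 2 (-0.89, adjusted p = 0.0188).

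A published 22-gene signature of YAP and TAZ activity, drawn from human cancers, gives a further set of targets. Leaving out the 5 genes already described, 16 of 17 could be tested, and 9 fell, none rose and 7 did not pass (median -1.38). The share of all tested genes called lower was 8.16%. With the replicate block 11 fell, beside 13.8% of all genes in that fit. This list was written with earlier results of these data known, so its counts are a description and support nothing. The fall of Igfbp3 was already known then, and the values of Igfbp3 are given as a description, without a p-value.

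Igfbp3, which binds insulin-like growth factors, went from 2277, 1383 and 2115 to 92.2, 88.4 and 92.9 (log2 -4.27, SE 0.20). On this probe set, whose name marks it as matching several transcripts, the shRNA arrays lay within a few units of each other. The other Igfbp3 probe set read 2876, 1206 and 2321 in the controls against 82.7, 53.8 and 51.4 (log2 -4.88). The growth factor gene Tgfb2 went from 143, 60 and 109 to background on every shRNA array (13.5, 2.1 and 7.3), at least 4.83-fold lower. Tgfb2 passed the signal filter only through its control arrays, so its call is given without a p-value and supports nothing. Without control replicate 3 a dimmer Tgfb2 probe set was the brightest and gave -1.83, which was not called.

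Ptpn14, a phosphatase that binds YAP, and the ectonucleotidase gene Nt5e each fell by 1.88 on the log2 scale (limma adjusted p = 0.00261 and 0.0037), and Ptpn14 gave -1.12 with the mean of its probe sets. The receptor tyrosine kinase gene Axl fell by 2.07 (limma adjusted p = 0.00467, but log2 -0.99 and 0.105 with the mean of its probe sets, 1 of which gave 0.08), as did F3, tissue factor (log2 -2.01, adjusted p = 0.0128, and 0.0521 without shRNA replicate 2). Crim1 fell by 1.70 (limma adjusted p = 0.0112) and so did Arhgef17 (log2 -0.89, adjusted p = 0.0107, lost without shRNA replicate 2 at 0.0536 and with the mean of its probe sets at log2 -0.22 and 0.474). Fjx1 fell by 1.15 (limma adjusted p = 0.0353) and lost its call without any 1 array but control replicate 3 (adjusted p up to 0.102), with no filter on signal (0.0674) and when its probe sets were averaged (0.0634). The 2 brightest that did not pass were the stress gene Gadd45a (log2 -0.49, limma adjusted p = 0.11, and 0.0471 with the block) and Asap1 (log2 -0.38, limma adjusted p = 0.178). Without shRNA replicate 2 the count that fell was 6.

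**Figure D4:**
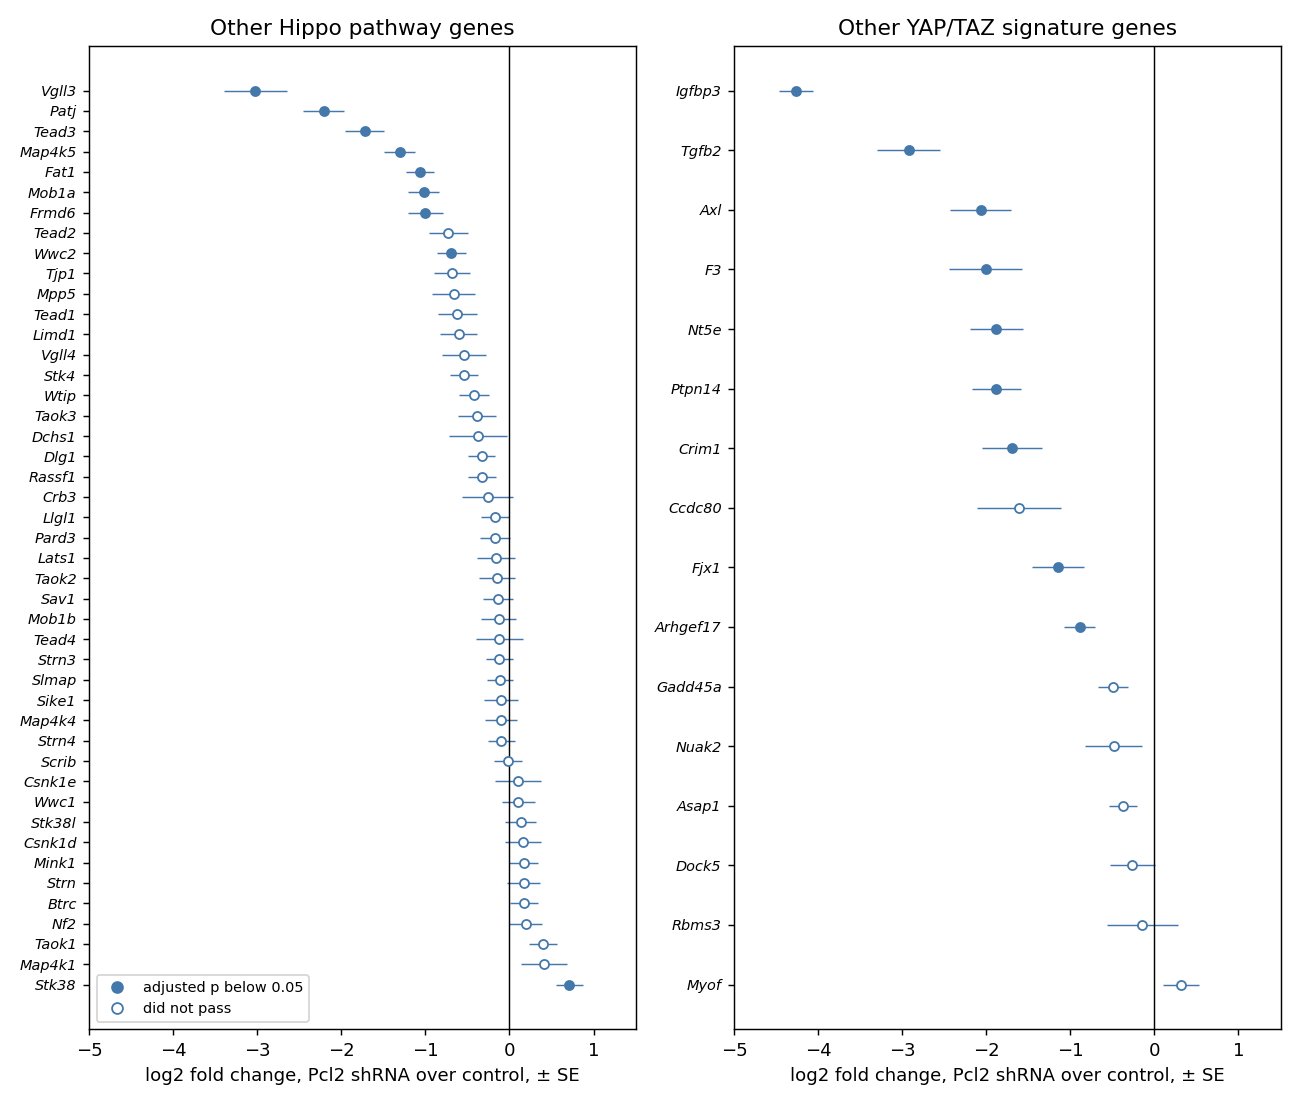
Log2 fold change (shRNA over control, ± SE of the limma fit) of the 45 other Hippo pathway genes tested, TEAD genes included (left), and the 16 other YAP/TAZ signature genes tested (right), sorted by value; filled points have a limma adjusted p below 0.05. On the left most points lie near 0 with Vgll3 and Patj farthest below; on the right 15 of 16 lie below 0. Mpp5 is the GRCm38.p6 gene table's name for Pals1.

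Promoter matches to GGAATG were also counted for these lists: 10 of 38 Hippo pathway genes with an entry (26.3%) and 3 of 11 signature genes (27.3%) held it, beside 14.5% of tested genes.

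Markers of other cell types that respond to YAP were read on the same arrays, by the brightest probe set of each gene. Beside the counts of called markers below, 8.16% of all tested genes were called lower and 4.46% higher. The marker lists too were chosen with earlier results of these data known, so their counts are a description. Of 9 fibroblast markers, 2 were above background on every array. The probe set of Lum and the brightest of Dcn were at or below background on all 6 arrays, and a dimmer Dcn probe set was above it in control replicate 1 alone (33.5). The fibroblast signals summed to 1053, 428 and 471 in the controls and 593, 295 and 298 with the shRNA, so the groups overlapped. By replicate number, though, each shRNA sum was below its control sum. These sums were highest in control replicate 1, lowest of the controls in control replicate 2, and highest of the shRNA arrays in replicate 1. Ccn1 and Amot had the same highest and lowest controls and the same highest shRNA array. Ankrd1 and Ccn2 were highest in control replicate 3. The match was partial: shRNA replicates 2 and 3 had close sums (295 and 298), but Ccn1 and Amot were lowest in shRNA replicate 3 (46.4 and 36.7). Control replicate 3 was near control replicate 2 in the sums, but for Ccn1 it was near control replicate 1 (1698 and 1892). The other genes of the set were not compared in this way. The part of fibroblasts in the results was not tested. Of the 6 fibroblast markers tested, 1 was called lower, Twist2 (log2 -1.79), and none higher. The mean shRNA signal of Twist2, 15.0, lay under the filter level of about 20.2. It passed through its control arrays, so its call is given without a p-value and supports nothing. All 6 fibroblast markers tested had a log2 difference below 0 (median -0.67), beside 6229 of all 13095 tested genes (median 0.02).

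The 8 trophectoderm markers summed to 395 to 730 in the controls and 248 to 302 with the shRNA, without overlap. Of these, 3 were above background on every array and Gata3 was at background on all 6. The gap between the sums was not shared by every gene. In 4 of the 6 tested the groups overlapped, Tfap2a among them with a log2 difference of 0.32. Of the 6 tested, 1 was called lower, Cdx2, which was at background on all shRNA arrays and at least 3.67-fold lower. Cdx2 passed the signal filter only through its control arrays, so its call is given without a p-value and supports nothing. Of the 8 primitive endoderm markers, 4 were above background on every array and Afp was at background on all 6. Their sums were 325 to 436 in the controls and 228 to 273 with the shRNA. Dab2, 1 of the 4 tested, was called lower, from 212, 169 and 252 to 71.5, 56.2 and 42.4 (limma adjusted p = 0.00106). The other 3 tested gave log2 differences of 0.00 for Gata4, 0.03 for Gata6 and -0.05 for Foxa2, with overlapping groups.

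The embryonic stem cell markers summed to 20049 to 25713 in the controls and 29215 to 40634 with the shRNA. Of the 8, 3 were called higher (Fgf4, Zfp42 and Sox2) and none lower, beside 4.46% and 8.16% of all tested genes. The part of these markers in the results was not tested.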

How the data were processed

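Total RNA of 3 mismatch control and 3 Pcl2 shRNA samples was measured on 1-colour Affymetrix arrays. The authors deposited 1 signal intensity per probe set, on a linear scale. The labels name GCOS 1.4 as the software and the submitters' processing notes name MAS5. Its other settings are not stated. Each of the 6 arrays had a 2% trimmed mean of 150.001, and this scaling was kept. The platform annotation gave 1 gene for 34945 of 45101 probe sets, several for 932 and none for 9160, and 64 were controls. By gene ID 34741 of the 34945 were matched to the GRCm38.p6 gene table for current symbols. A probe set naming both Xpo4 and Lats2 was left out.

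Signals became log2(signal + 7), 7 being the 20th percentile of all values, so changes of dim genes are understated. Probe sets with a mean log2 value at or above the 40th percentile (a signal of about 20.2; 23186 probe sets) were tested, the brightest per gene, with limma 3.58.1 in R 4.3.3 (eBayes with trend, Benjamini-Hochberg), two-sided. The procedure was tested on simulated data in which the arrays varied independently. Those data hold neither the single clone nor the joint deviation of samples with the same replicate number, so the calls gain no support from them. A group at or below background (20.3) on all its arrays has only a bound, the geometric mean of the other group over that level. Percentages of control are ratios of mean signals.

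Samples with the same replicate number deviated together (r = 0.262 to 0.356; other pairs -0.333 to -0.029), and pairing by number was assumed from this, not from the labels. Log2 values correlated at 0.957 to 0.974 within groups, and no arrays were duplicates.

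The genes and lists were chosen with earlier results of these data known. Named genes are the 10, Mtf2, the Tead genes, all called genes and the 2 brightest others of each list, and the 5 most like Ccn1; of the marker lists, genes at background or called were also named. Without an annotated single-gene probe set were 5 Hippo genes, and Fat4 and Foxf2 were too dim to test. Alternatives were normalization, pseudocount, filter, probe set choice, eBayes settings, replicate block, array weights, a floor at background and each array left out. Promoters came from RefSeq.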

Additional observations from a re-analysis of the deposited data

How the results depend on the processing

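Over the 19 alternatives to the fit as reported, none of the 10 genes changed direction, and none was called higher. Blocking on replicate number, 1808 genes were called lower and 1305 higher over all genes, and 14 of the other Hippo pathway genes were lower; it changed no other count by over 1.5 times. Array weights gave 885 higher over all genes. No Hippo pathway gene was higher with median centring or the mean of probe sets (0 each). Without 1 array, 718 to 1021 genes were lower and 261 to 577 higher over all genes, 6 to 8 of the 10 genes, 6 to 9 of the Hippo pathway genes and 6 to 9 of the signature genes were lower, and 0 to 1 Hippo pathway gene was higher. Mtf2 then gave -0.84 to -0.63. Strn3 changed sign with the mean of probe sets (0.12) and Tead4 without control replicate 1 (-0.35 to 0.12 over the arrays left out); the cause was not tested. With the filter at the 60th percentile, Ankrd1, Tgfb2, Crim1 and Tead4 were too dim to be tested. Signals near background limit what Ankrd1, Tead4 and the dim probe sets of Ccn1 and Lats2 can show.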
